A study of Mus musculus with 12 samples.

Results

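The integrated stress response was followed in mouse liver through 10 genes: the transcription factors Atf4, Atf3, Atf5 and Ddit3 (the gene of CHOP), their regulator Trib3, and the target genes Chac1, Asns, Sesn2, Psat1 and Phgdh. The members were taken by name. Each was read from the probe set annotated with that symbol and no other, and the 10 genes were among 19937 genes with such a probe set on the array, which carried 21640 of these probe sets in a total of 28213. Each member had exactly 1, so no choice between probe sets was needed.

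All 12 livers came from C57BL/6 mice, 6 weeks of age according to the labels, while the methods describe older female C57BL/6J mice. The mice received a subcutaneous injection of saline or of an insulin at 55 nmol/kg, and the liver was taken 6 h later, with 3 arrays in each of the 4 groups. The insulins were Albulin, in which insulin is fused to albumin, Insulin-Apo, a single-chain insulin fused to human apolipoprotein A-I, and insulin glargine, a long-acting analogue without a fusion partner. According to the methods both fusion proteins were made in E. coli and purified by GenScript, and the insulin glargine of the study was Lantus, supplied by Sanofi-Aventis. For the arrays, insulin glargine is given by the labels and not by the methods. The presence of a fusion partner therefore cannot be told apart from the supplier and preparation of a protein. The sources do not say that each array is a separate mouse, and p-values then measure the spread between arrays, which may be technical. The animals carried no genetic change, and no untreated or uninjected group was among the arrays.

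In the integrated stress response, kinases that sense unfolded proteins, amino acid shortage, double-stranded RNA or heme shortage phosphorylate the translation initiation factor eIF2. General protein synthesis falls, while the mRNA of ATF4 is translated better, and ATF4 then switches on genes of amino acid supply, redox balance and, together with CHOP, cell death. Much of the control of ATF4 itself therefore lies in translation, which an array of mRNA does not measure. In liver the pathway is known for its response to diet, to amino acid supply and to the load of secreted proteins.

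Values are log2 probe set intensities after RMA, the robust multi-array average, so that a difference of 1 is a doubling, and a level is not compared between probe sets. Differences were tested with limma, which fits a linear model to every probe set and shares information on the spread among them. A difference was called when limma's B statistic was over 0, that is, when the model gave a difference better than even odds. The p-values were adjusted with the Benjamini-Hochberg method over all probe sets tested.

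Chac1, which encodes a glutathione-degrading enzyme, was the member whose groups differed most. Chac1 was 3.22-fold higher after Albulin than after saline, 3.82-fold lower after insulin glargine than after Albulin, and 2.25-fold lower after insulin glargine than after Insulin-Apo. Atf4 was 1.28-fold higher after Insulin-Apo than after saline, a call that stayed with 1 of the 9 arrays left out in turn. The Atf4 difference after Albulin was of nearly the same size, 1.27-fold, and was not called. Chac1 was 1.90-fold higher after Insulin-Apo than after saline, also not called. None of the other 8 members was called in any of the 6 comparisons between groups. The median log2 difference from saline over the 10 members was -0.04 after Albulin, 0.18 after Insulin-Apo and -0.04 after insulin glargine, against 0.0026, -0.017 and -0.00033 over all probe sets tested.

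Each count of called members was set beside the share called over all probe sets tested. After Albulin 1 of 10 members was called higher and 0 lower, where 1.37% of all probe sets tested were called higher and 1.04% lower. After Insulin-Apo there were also 1 higher and 0 lower, with 1.34% called higher and 0.804% lower over all probe sets. The members at an unadjusted p under 0.05 in limma were 2 higher and 2 lower after Albulin, and 4 higher and 1 lower after Insulin-Apo. After insulin glargine 0 members were called, with 2.24% called higher and 2.6% lower in all, and at an unadjusted p under 0.05 in limma 2 members were higher and 2 lower. Between Albulin and Insulin-Apo 0 members were called, where 0.25% of probe sets were higher after Albulin and 0.389% lower, and at an unadjusted p under 0.05 there were 1 higher and 3 lower members. Insulin glargine gave 1 lower member against Albulin, with 2.01% of all probe sets higher and 2.35% lower. It gave 1 lower member against Insulin-Apo, with 1.96% higher and 2.88% lower. At an unadjusted p under 0.05 in limma there were 1 higher and 2 lower members against Albulin, and 0 higher and 2 lower against Insulin-Apo. The shares over all probe sets count calls by the B statistic. No share at an unadjusted p under 0.05 was taken, so counts at that p have none beside them, here and for the lists below. A moderated F test over the 4 groups had an adjusted p under 0.05 for 2 of the 10 members, Chac1 (adjusted p = 0.00015) and Atf4 (adjusted p = 0.0381), and for 13.3% of all probe sets. The comparisons with saline share the 3 saline arrays and are not independent of each other.

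All 10 members had a value over 5 in each of the 12 arrays, so none was lost to the filter on low values. Array medians lay between 7.70 and 7.77. The arrays of the saline, Albulin and Insulin-Apo groups had a mean correlation of 0.995 to 0.997 with the others of their group, and the insulin glargine arrays 0.990 to 0.993, replicate 3 being the lowest. The mean level of 7 hepatocyte markers was 14.3 to 14.5 in every array, and none of them was called in any comparison (at most 1 in each direction at an unadjusted p under 0.05 in limma). In bulk liver, fewer cells of a type and less RNA per cell cannot be told apart.

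**Figure D1:**
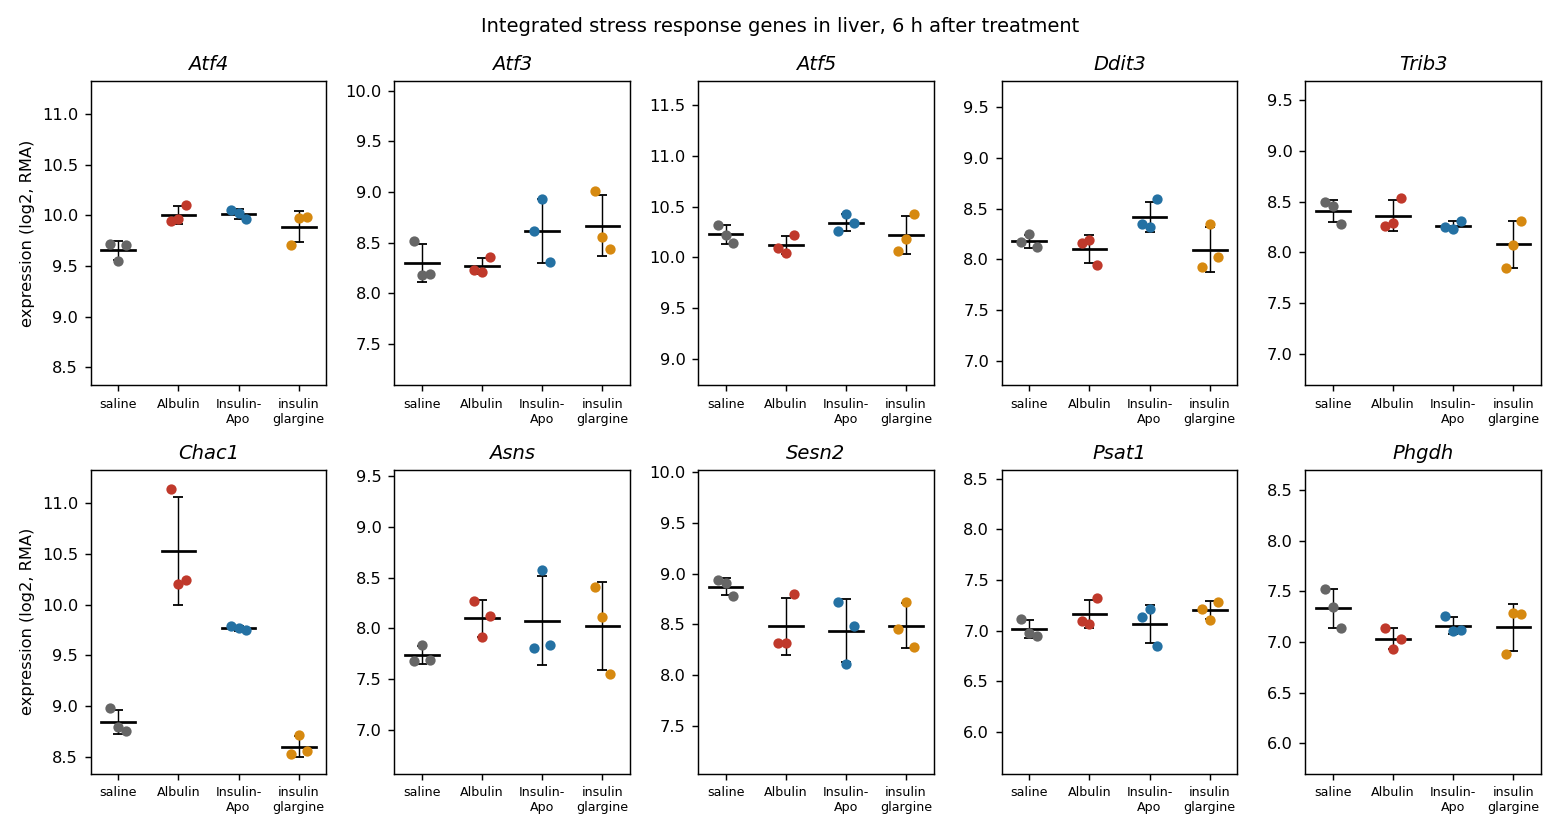
Log2 intensity (vertical axis, each panel 3 log2 units high) of the 10 members in the 4 groups of 3 arrays, 1 point for each array and a line at the group mean. The Chac1 panel has its Albulin arrays between 10.20 and 11.14 and its saline arrays between 8.75 and 8.98, and the points of most other members lie close together.

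The promoters of the members were searched for the core of the C/EBP-ATF response element, TGATGNAA, to which ATF4 binds as a partner of C/EBP proteins and at which CHOP can also be found. The windows searched were those of RefSeq on GRCm38.p6, from 250 bases before to 50 bases after each transcription start. All 10 members matched by symbol, with 12 windows between them. On either strand the motif lay in a window of 4 members, Atf3, Trib3, Chac1 and Asns, against 4.51% of 27025 genes and 3.97% of 32851 windows. The cAMP response element TGACGTCA lay in 0 of the 12 windows, against 1.79% of all windows. The windows of these 4 members are shown in part because they hold the core motif and include that of Chac1. For Chac1, Atf3 and Asns the 250 bases before the start are printed, and for Trib3 a stretch of 30 bases after the start, with the motif in capitals and each written 5′ to 3′ along its gene's strand.
Chac1, chr2:119350992-119351241, plus strand: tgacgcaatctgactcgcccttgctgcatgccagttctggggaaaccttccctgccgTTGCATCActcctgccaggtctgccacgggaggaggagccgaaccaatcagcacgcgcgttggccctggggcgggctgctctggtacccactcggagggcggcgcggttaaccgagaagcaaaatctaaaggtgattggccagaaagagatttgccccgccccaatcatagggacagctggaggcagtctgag
Atf3, chr1:191183334-191183583, minus strand: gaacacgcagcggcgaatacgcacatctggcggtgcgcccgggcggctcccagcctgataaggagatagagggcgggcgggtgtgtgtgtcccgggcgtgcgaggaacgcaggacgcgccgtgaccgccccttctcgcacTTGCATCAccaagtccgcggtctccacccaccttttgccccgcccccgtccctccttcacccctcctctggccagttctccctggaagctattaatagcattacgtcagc
Asns, chr6:7693210-7693459, minus strand: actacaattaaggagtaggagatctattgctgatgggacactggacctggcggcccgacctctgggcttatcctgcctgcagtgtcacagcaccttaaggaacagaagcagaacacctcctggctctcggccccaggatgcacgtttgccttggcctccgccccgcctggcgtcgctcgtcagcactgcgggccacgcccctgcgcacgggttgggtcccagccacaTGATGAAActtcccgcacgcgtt
Trib3, chr2:152344028-152344057, minus strand: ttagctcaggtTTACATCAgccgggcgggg
In Chac1 the match began 193 bases before the start and in Atf3 110 bases before it, both on the strand opposite to the gene. In Asns it lay on the gene's own strand, 23 bases before the start, and in Trib3 on the opposite strand, 15 bases after it. Of these 4 genes, only Chac1 was called in a comparison, and Atf4, the other called member, had no match in its windows. A match of letters is a description of the sequence and not a measured binding site.

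Atf4 is the central transcription factor of the pathway. Its log2 values were 9.72, 9.55 and 9.71 in the saline arrays and 10.05, 10.03 and 9.96 after Insulin-Apo. They were 9.94, 9.97 and 10.10 after Albulin and 9.71, 9.97 and 9.98 after insulin glargine. Every Albulin and Insulin-Apo array was above every saline array, whereas insulin glargine replicate 1 lay within the saline range. Atf4 rose by 0.35 ± 0.07 (SE, n = 3 and 3) on the log2 scale after Insulin-Apo, a 1.28-fold difference with a 95% confidence interval of 1.15 to 1.43 (limma, adjusted p = 0.0239). The difference after Albulin was nearly of the same size, 0.35 ± 0.07 with an adjusted p of 0.0221, but its B statistic was -0.01 and it was not called. After insulin glargine it was 0.23 ± 0.09 (adjusted p = 0.120). Albulin and Insulin-Apo differed from each other by -0.01 in Atf4, with a 95% confidence interval of -0.17 to 0.15. The call after Insulin-Apo was close to the threshold. When each of the 9 arrays was left out in turn the log2 difference ranged from 0.30 to 0.38, and Atf4 stayed called in 1 case, without Albulin replicate 3. It was also not called in a fit of all 12 arrays (adjusted p = 0.0630) or of the 6 arrays of both groups (adjusted p = 0.0447). In the F test Atf4 kept an adjusted p under 0.05 with 3 of the 12 arrays left out in turn.

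Ddit3 encodes CHOP, the factor linked to cell death under lasting stress. Its values were 8.17, 8.25 and 8.12 after saline, 8.17, 8.19 and 7.94 after Albulin, 8.34, 8.32 and 8.59 after Insulin-Apo, and 7.93, 8.34 and 8.02 after insulin glargine. The Insulin-Apo arrays lay above all saline and Albulin arrays, and insulin glargine replicate 2 reached into their range. The log2 differences from saline were -0.08 after Albulin, 0.24 after Insulin-Apo (adjusted p = 0.198) and -0.08 after insulin glargine. Albulin was lower than Insulin-Apo by a log2 difference of -0.32 (adjusted p = 0.182, 95% confidence interval -0.53 to -0.12), which was not called.

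Atf3 encodes a stress-induced factor of the same family. Its values were 8.51, 8.18 and 8.19 after saline, 8.23, 8.21 and 8.36 after Albulin, 8.62, 8.93 and 8.30 after Insulin-Apo, and 9.01, 8.55 and 8.44 after insulin glargine. The arrays of insulin glargine were all above those of Albulin, by a mean log2 difference of 0.40 (adjusted p = 0.180), and both groups overlapped with saline. Atf5 encodes a factor that is controlled in translation like ATF4. Its group means were 10.22 after saline, 10.12 after Albulin, 10.34 after Insulin-Apo and 10.22 after insulin glargine. Trib3 encodes a pseudokinase that ATF4 and CHOP induce and that restrains both ATF4 and signalling through AKT. Its values were 8.49, 8.45 and 8.28 after saline and 7.85, 8.08 and 8.31 after insulin glargine, overlapping in 1 array of each group, with a log2 difference of -0.33 ± 0.11 (adjusted p = 0.0844). The Trib3 differences after the fusion proteins were smaller, -0.05 after Albulin and -0.15 after Insulin-Apo.

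Chac1 is induced by ATF4, and its enzyme cleaves glutathione, the main thiol of the cell. Its log2 values were 8.98, 8.79 and 8.75 in the saline arrays and 11.14, 10.20 and 10.25 after Albulin. They were 9.79, 9.77 and 9.75 after Insulin-Apo and 8.52, 8.72 and 8.55 after insulin glargine. The 4 groups did not overlap, with Albulin the highest, then Insulin-Apo, then saline, then insulin glargine. The 3 Insulin-Apo arrays had an SD of 0.02, while the 3 Albulin arrays had an SD of 0.53, with replicate 1 above the other arrays of its group.

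Chac1 rose by 1.69 ± 0.20 (SE, n = 3 and 3) on the log2 scale after Albulin, a 3.22-fold difference with a 95% confidence interval of 2.38 to 4.36 (limma, adjusted p = 0.00147). Without Albulin replicate 1 the log2 difference was 1.38, and it stayed called with each of the 9 arrays left out in turn. After Insulin-Apo the log2 difference from saline was 0.93 ± 0.20, or 1.90-fold, with an adjusted p of 0.0287 and a B statistic of -0.21. It was thus past an adjusted p of 0.05 and not past the threshold used for the calls. The same difference of 0.93 was called when any 1 of the 3 Albulin arrays was left out (adjusted p = 0.000907 without replicate 1, 0.0316 without replicate 2 and 0.0286 without replicate 3), in a fit of all 12 arrays (adjusted p = 0.0306) and in a fit of the 6 arrays of both groups (adjusted p = 0.00297). It was not called when any saline or Insulin-Apo array was left out. After insulin glargine it was -0.24 ± 0.19 (adjusted p = 0.545).

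Between the 2 fusion proteins at the same dose and time, Chac1 was higher after Albulin by 0.76 ± 0.20 on the log2 scale, with a 95% confidence interval of 0.33 to 1.20, and this was not called (adjusted p = 0.151). Without Albulin replicate 1 the difference was smaller, 0.46, and its B statistic was over 0 (adjusted p = 0.171). Insulin glargine, which has no fusion partner, gave a Chac1 log2 difference of -1.93 ± 0.19 from Albulin (adjusted p = 6.9e-05) and of -1.17 ± 0.19 from Insulin-Apo (adjusted p = 0.00196). Both differences were called with any 1 of the 12 arrays left out. The 3 pairs of insulins were each tested over all probe sets, and Chac1 was the only member called in any pair.

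**Figure D2:**
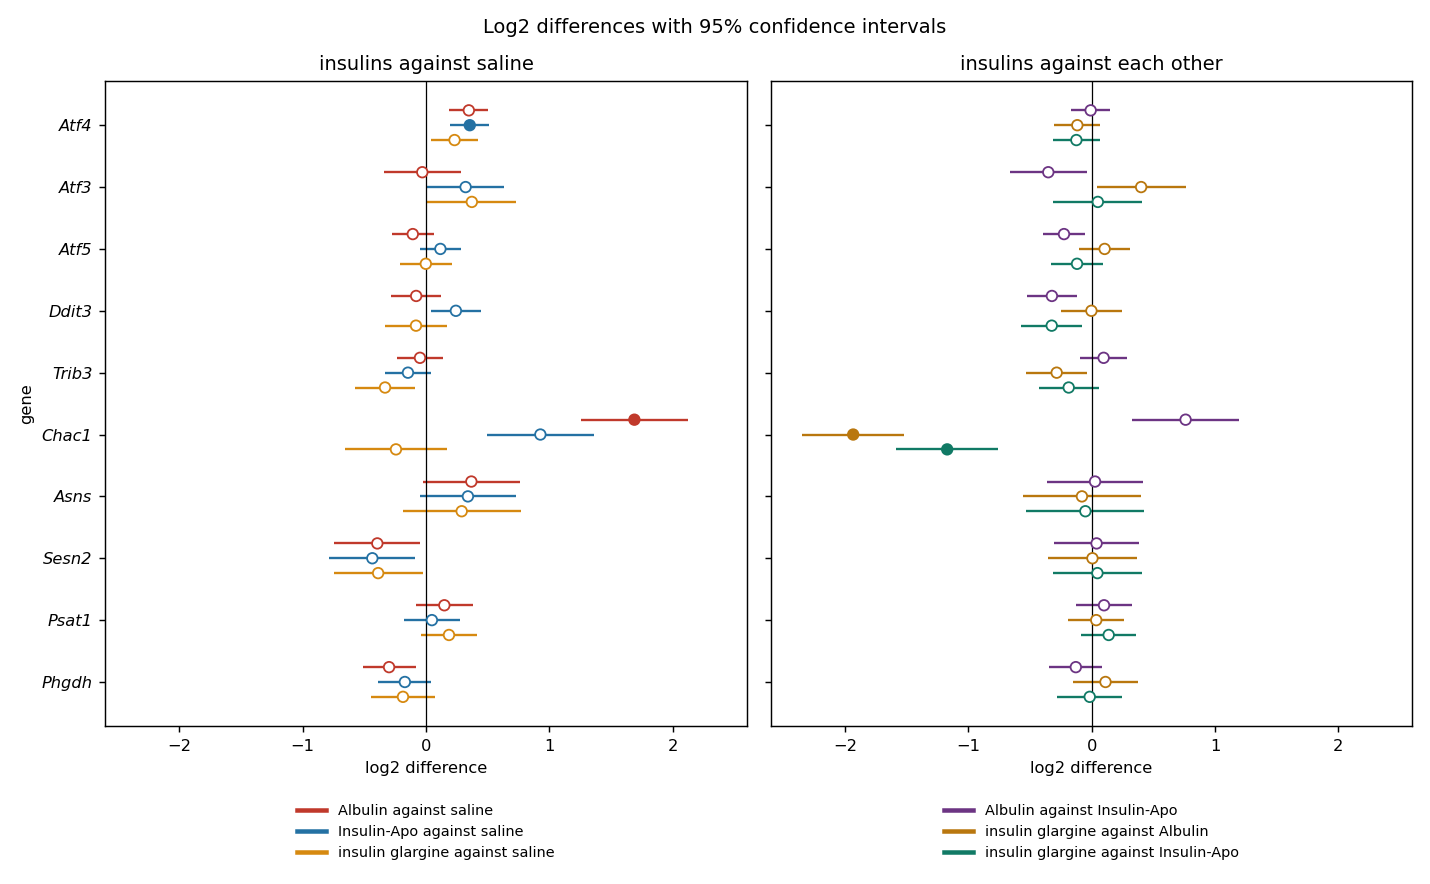
Log2 differences (horizontal axis) of the 10 members with 95% confidence intervals, each insulin against saline on the left and the insulins against each other on the right. Filled points were called, and these are Chac1 after Albulin and Atf4 after Insulin-Apo on the left, and Chac1 in insulin glargine against Albulin (-1.93) and against Insulin-Apo (-1.17) on the right.

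The members that supply amino acids were not called. Asns, which makes asparagine and is a textbook ATF4 target, had values of 7.68, 7.84 and 7.68 after saline, 8.27, 7.91 and 8.12 after Albulin, 7.81, 8.58 and 7.83 after Insulin-Apo, and 8.41, 8.11 and 7.55 after insulin glargine. All 3 Albulin arrays were above the saline arrays, and the other insulins spread widely, with SDs of 0.44 in each. The Asns log2 differences from saline were 0.37 ± 0.18 (adjusted p = 0.312), 0.34 ± 0.18 (adjusted p = 0.365) and 0.29 ± 0.22 (adjusted p = 0.533). Phgdh and Psat1 encode successive enzymes of serine synthesis. For Psat1 the differences after Albulin, Insulin-Apo and insulin glargine were 0.15, 0.05 and 0.19, and for Phgdh they were -0.30 (adjusted p = 0.121), -0.17 and -0.19. The enzymes of this pathway thus had differences of opposite sign, none of them called. Another probe set of Phgdh is shared with the near-identical copy Gm6756 and was not used.

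Sesn2 encodes a leucine sensor that restrains mTORC1. Its values were 8.94, 8.90 and 8.78 after saline, 8.32, 8.32 and 8.80 after Albulin, 8.72, 8.11 and 8.49 after Insulin-Apo, and 8.46, 8.72 and 8.28 after insulin glargine. With the exception of Albulin replicate 3, all arrays of insulin-treated mice were below the saline arrays. The log2 differences were -0.39 ± 0.16 (adjusted p = 0.208), -0.44 ± 0.16 (adjusted p = 0.172) and -0.39 ± 0.17 (adjusted p = 0.182), and none was called.

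The genes upstream of ATF4 were represented by 13 genes for eIF2 kinases, eIF2 subunits, eIF2 phosphatase subunits and eIF2B, the exchange factor of eIF2. Of these, 0 were called after Albulin (5 were higher and 0 lower at an unadjusted p under 0.05 in limma), 2 rose after Insulin-Apo and 1 rose after insulin glargine. The median log2 differences over the 13 genes were 0.12, 0.16 and 0.16. Eif2ak3, which encodes PERK, the kinase that senses unfolded proteins in the endoplasmic reticulum, rose by 0.99 ± 0.13 after Insulin-Apo (adjusted p = 0.00301), with a difference of 0.59 after Albulin (adjusted p = 0.0251, not called) and 0.35 after insulin glargine (adjusted p = 0.270). Eif2b3, a subunit of eIF2B, was 1.01 ± 0.11 higher after insulin glargine than after saline (adjusted p = 0.000137) and was also called higher against Albulin and Insulin-Apo. The other call after Insulin-Apo was Eif2b4, named after its value was seen, at 0.43. Ppp1r15a, which encodes GADD34, the phosphatase subunit that ends the response, was lower after insulin glargine than after Insulin-Apo by a log2 difference of -0.49 (adjusted p = 0.00557), a call that was lost without insulin glargine replicate 3.

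Among 25 other known ATF4 targets, which include genes of amino acid uptake and synthesis, Albulin gave 0 calls and Insulin-Apo gave 0. Under limma's unadjusted p of 0.05 the numbers were 2 higher and 3 lower with Albulin, and 4 higher and 5 lower with Insulin-Apo. After insulin glargine 1 rose, Slc3a2, the heavy chain of amino acid exchangers, by 0.53 ± 0.10 (adjusted p = 0.00594). Its light-chain partner Slc7a5 had a difference of 0.60 ± 0.13 after insulin glargine (adjusted p = 0.0118) that was not called. Ddit4, which encodes the mTORC1 inhibitor REDD1, was higher after insulin glargine than after Insulin-Apo by 1.78 ± 0.28 (adjusted p = 0.00178), with differences from saline of -0.66, -1.12 and 0.65 after Albulin, Insulin-Apo and insulin glargine that were not called. Cth, an enzyme of cysteine synthesis, had differences of -0.48 after Albulin and -0.52 after Insulin-Apo, also not called. The median over the 25 genes was 0.03, -0.03 and 0.10.

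Cytosolic aminoacyl-tRNA synthetases charge tRNAs with amino acids, and several are ATF4 targets. Of 18 measured, 2 rose after each insulin and 0 fell, with medians of 0.22, 0.23 and 0.15. At an unadjusted p under 0.05 in limma, 10 were higher after Albulin, 12 after Insulin-Apo and 4 after insulin glargine, with 0 lower. Tars, the threonine enzyme, rose by 0.75 after Albulin, 0.52 after Insulin-Apo and 0.54 after insulin glargine. Wars, the tryptophan enzyme, rose with both fusion proteins, by 0.38 for Albulin and 0.47 for Insulin-Apo, and Eprs, which charges glutamate and proline, rose by 0.53 after insulin glargine. The 8 CHOP targets tested had 2 calls after Albulin and 2 after Insulin-Apo, all higher, and 0 after insulin glargine, where 1 was higher and 1 lower at an unadjusted p under 0.05 in limma. The genes were Wars again and Ero1b, an oxidase of the endoplasmic reticulum, with log2 differences of 0.59 for Albulin and 0.82 for Insulin-Apo. The medians over the 8 genes were 0.03, -0.04 and -0.00057. Dnajb4, also in the list, had differences of -0.43, -0.10 and -0.71 after Albulin, Insulin-Apo and insulin glargine, none of them called. For Bcl2l11 they were -0.15, -0.07 and 0.34, also not called. With insulin glargine replicate 3 left out, a choice made after seeing the data, 1 CHOP target, Ero1a, was called higher after insulin glargine.

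The XBP1 and ATF6 arms of the unfolded protein response run beside PERK and ATF4 and raise chaperones of the endoplasmic reticulum. Of 20 genes, 3 rose after Albulin (Dnajb9, Manf and Xbp1) and 9 after Insulin-Apo, with 0 called lower and medians of 0.22 and 0.44. At an unadjusted p under 0.05 in limma, 11 were higher after Albulin and 18 after Insulin-Apo, with 0 lower. With insulin glargine 4 were higher and 2 lower at that p. After insulin glargine Hspa5, the chaperone BiP, rose and Ern1, the kinase IRE1, fell. Without insulin glargine replicate 3 the calls were 5 higher and 0 lower. Dnajb9, an HSP40 co-chaperone, rose by 0.91 in the Albulin group and by 1.20 in the Insulin-Apo group. Manf, a secreted stress factor, rose by 0.55 and 1.02 in these groups. Sdf2l1, a chaperone partner, rose by 1.37 after Insulin-Apo, while its difference after Albulin was 0.14 and was not called. Between the fusion proteins, 3 of the 20 genes were called lower after Albulin, namely Sdf2l1 (-1.23), Creld2 (-0.92) and Manf (-0.47), while the Chac1 difference had the opposite sign (0.76). Of the genes named here, Xbp1, Ern1 and Creld2 were chosen after their values were seen.

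**Figure D3:**
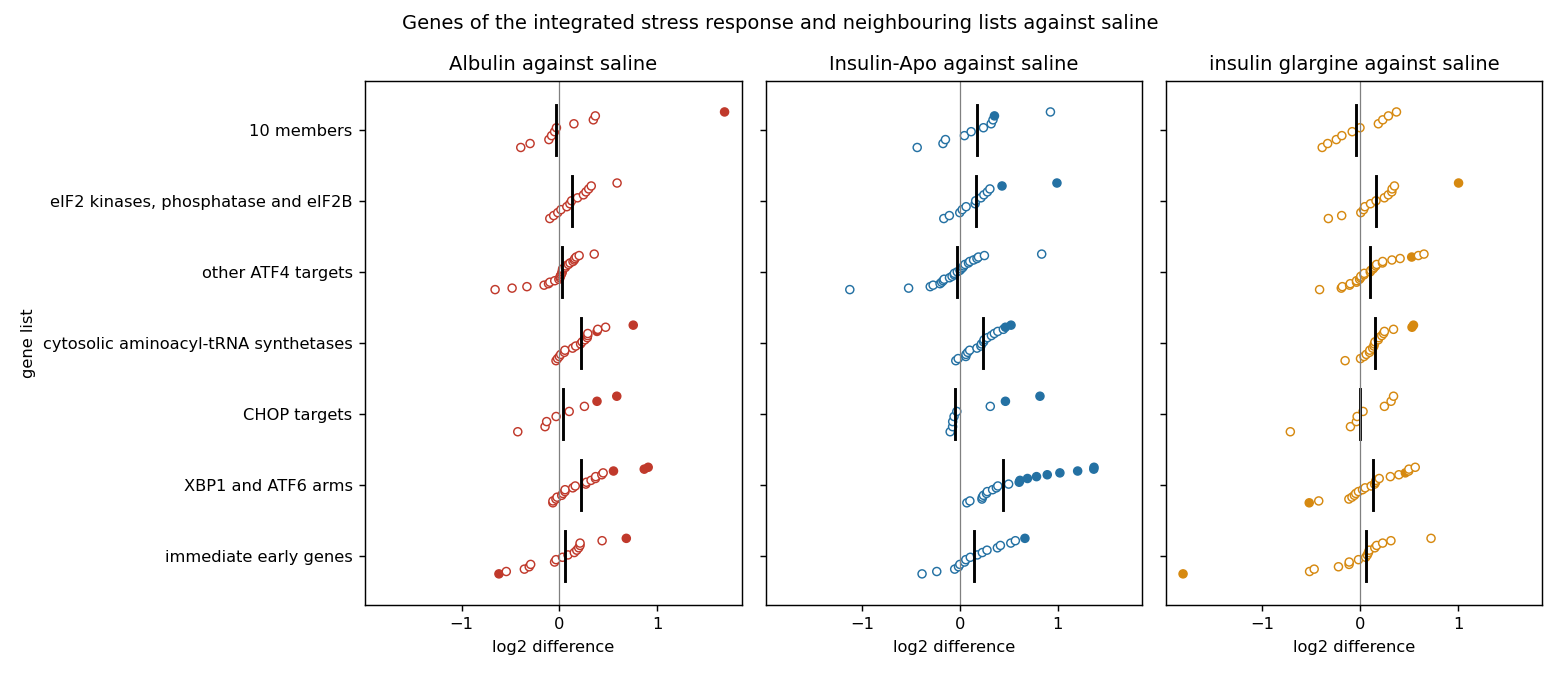
Log2 differences from saline (horizontal axis) of the genes of each list (vertical axis) after the 3 insulins. There is 1 point for each gene, filled where called, with a black bar at the median. The 20 genes of the XBP1 and ATF6 arms have a median of 0.44 after Insulin-Apo, and the 25 other ATF4 targets have medians of 0.03, -0.03 and 0.10.

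Immediate early genes, which respond to growth factors and to many kinds of stress, were set beside these lists. Of 16 genes, Junb was higher with both fusion proteins (0.68 with Albulin, 0.67 with Insulin-Apo), Dusp1 fell by 0.62 after Albulin, and Egr1 fell by 1.81 after insulin glargine. The medians against saline were 0.06, 0.14 and 0.06. Between the insulins, Junb was called lower after insulin glargine than after Albulin (-1.15) and Insulin-Apo (-1.14), and Egr1 likewise (-1.27 and -1.86). Dusp1 was called lower after Albulin than after Insulin-Apo (-0.90), and higher after insulin glargine than after Albulin (1.34). Btg2 was called lower after insulin glargine than after Insulin-Apo (-0.79). The Btg2 call and the Egr1 call against Albulin were lost without insulin glargine replicate 3.

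Markers of neutrophils differed between the same groups as Chac1. Of 9 markers, 4 were called higher after Albulin (S100a8 by 0.95, S100a9 by 0.64, Cxcr2 by 0.92 and Mmp8 by 1.04), with 0 after Insulin-Apo and 0 after insulin glargine. At an unadjusted p under 0.05 in limma, 7 were higher after Insulin-Apo, and 2 were lower after insulin glargine. Insulin glargine had 6 lower than Albulin and 4 lower than Insulin-Apo (S100a8, S100a9, Cxcr2 and Csf3r). Without insulin glargine replicate 3 there were 5 lower than Albulin, Retnlg being lost. Against Insulin-Apo there were then 3, namely S100a9, Ly6g and Csf3r. The mean level of the 9 markers was 6.95 to 7.20 in the saline arrays, 7.60 to 7.76 after Albulin, 7.39 to 7.58 after Insulin-Apo and 6.83 to 7.08 after insulin glargine, and none of the markers was at or under 5 in all arrays. The part of these cells in the Chac1 values was not tested. Among 11 Kupffer cell and macrophage markers, 1 was called higher after Insulin-Apo (Marco), 0 after Albulin and 0 after insulin glargine. At an unadjusted p under 0.05 in limma, 2 of them were higher after Albulin, 5 higher after Insulin-Apo and 2 lower after insulin glargine. In the insulin glargine and Albulin pair, the B cell genes Cd79b and Ms4a1 and the endothelial receptor gene Kdr were also called. All 3 were lower after insulin glargine, and Ms4a1 was not called without insulin glargine replicate 3. Of 8 endothelial markers, 5 were higher after Albulin than after saline at an unadjusted p under 0.05 in limma, with 0 called. In the insulin glargine and Insulin-Apo pair, Marco, the macrophage gene Cd68, Kdr and the NK cell gene Nkg7 were called lower after insulin glargine and the bile duct gene Krt19 higher, of which Nkg7 and Krt19 were not called without insulin glargine replicate 3.

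The probe sets whose pattern was most like that of the 2 members with the smallest F test p were found by Pearson's r over the 12 arrays among 20504 probe sets with 1 symbol. For Chac1 they were Ints7 (r = 0.97), a subunit of the Integrator complex, Ptpn3 (r = 0.96), a protein tyrosine phosphatase, and Rp9 (r = 0.96). For Atf4 they were Gimap9 (r = 0.93), a GTPase of lymphocytes, Mmadhc (r = 0.92), which acts in vitamin B12 metabolism, and Srsf10 (r = 0.91), a splicing factor. In Ptpn3 the group means were 8.66 after saline, 9.38 after Albulin, 8.93 after Insulin-Apo and 8.51 after insulin glargine, in the same order as in Chac1. These correlations span the 4 groups and are a description of arrays that share their treatment.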

How the data were processed

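Liver RNA was hybridised to Affymetrix Mouse Gene 1.0 ST arrays, 12 in all. The authors deposited log2 values per probe set, which they made with RMA (background correction, quantile normalization and summary of probes). Neither the version of RMA nor the annotation build was found in the text used here. Whether all 12 arrays, with those of insulin glargine, were normalized together is not stated. Quantile normalization gives all arrays nearly the same distribution, so that a shift of all genes cannot be seen.

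The members and the gene lists were chosen with earlier results of these data known. Symbols came from GEO's platform annotation, and promoters from RefSeq, which held all 10 members. A probe set needed 2 arrays of some group with values above 5, and those that passed were tested with limma 3.58.1 in R 4.3.3 (lmFit and eBayes, prior proportion 0.01), after the methods of the study. Comparisons of saline, Albulin and Insulin-Apo used 1 fit of their 9 arrays. Those with insulin glargine, and the F test, used 1 fit of 12. The arrays' number limits the precision. The limma comparison of Albulin against saline in the fit of 9 arrays was tested on simulated data, and the other steps were not. Python 3.11.15 with matplotlib 3.10.9 made the figures.

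All members are named. Of each other list, up to 4 genes with the smallest F test p are named, and for the 2 members with the smallest p, the 3 probe sets with the highest correlation. Called genes outside this rule were named after their values were seen. Alternatives were no filter or a stricter one, centring or repeated quantile normalization of the arrays, the replicate number as a block, other sets of arrays, a prior variance that follows intensity, calls by adjusted p, the mean of a gene's probe sets, and leaving out each array. Same-numbered arrays did not deviate together, so the numbers were not used as pairs.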

Additional observations from a re-analysis of the deposited data

How the results depend on the processing

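With 3 arrays a group, small differences could not be told from the spread. Signal over background removed no member, since all were over the filter in every array. Chac1 stayed called after Albulin against saline, and in insulin glargine against Albulin and against Insulin-Apo, under every alternative run and with any array left out. One of these alternatives, the mean of a gene's probe sets, could not change a member's values, because each member had exactly 1 such probe set. The other calls moved. For Albulin against saline 2 members, Atf4 and Chac1, were called under the stricter filter, with repeated quantile normalization and by an adjusted p under 0.05. Over all probe sets these settings called 626 of 23308, 644 of 25982 and 1219 of 25989. The main fit called 626 of 25989. For Insulin-Apo against saline 0 were called with the intensity trend and 2, Atf4 and Chac1, by adjusted p, with a range of 0 to 2 when 1 array was left out. Of all 25989 probe sets the intensity trend called 567 and the adjusted p 969, against 556 in the main fit. With 1 array left out, 324 to 643 probe sets were called. For Albulin against Insulin-Apo 0 to 1 members were called when 1 array was left out. The call of Chac1 was made without Albulin replicate 1, where 77 of 25952 probe sets were called. In the F test 1 member, Chac1, was left with the intensity trend and under an adjusted p of 0.01, and 1 to 3 when 1 array was left out. Of all 26027 probe sets these 2 settings called 3307 and 1561, against 3463 in the main fit. With 1 array left out, 2410 to 4202 probe sets were called. The 3 members were Atf4, Chac1 and Ddit3 without insulin glargine replicate 2 (limma F test, adjusted p = 0.0494 for Ddit3). Without insulin glargine replicate 3 they were Atf4, Chac1 and Trib3 (adjusted p = 0.0350 for Trib3). The causes were not tested.

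With the replicate number as a block, the F test likewise had 1 member, Chac1, beside 2904 of 26027 probe sets in all. For Insulin-Apo against saline the count stayed at 1 with another gene, since Chac1 was called at 0.93 (limma, adjusted p = 0.0229) and Atf4 at 0.35 was not (adjusted p = 0.0432). Over all probe sets 499 of 25989 were then called. Chac1 in place of Atf4 was likewise called in the fits of all 12 arrays and of the 6 arrays of both groups. These fits called 361 of 26027 and 421 of 25912 probe sets. The numbers are shared names: deviations of same-numbered arrays had correlations of -0.268 to 0.149 over the pairs of groups.

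No call reversed. Differences near 0 that changed sign were Atf5 after insulin glargine against saline (0.0080 with centred medians and 0.0060 with repeated quantile normalization), Atf4 in Albulin against Insulin-Apo (0.012 with repeated quantile normalization), and, in insulin glargine against Albulin, Ddit3 (0.010 with centred medians) and Sesn2 (-0.0023 with repeated quantile normalization). When 1 array was left out, the following changed sign. Against saline, Atf3 ranged from -0.088 to 0.079 and Trib3 from -0.14 to 0.0017 after Albulin, Psat1 from -0.026 to 0.16 after Insulin-Apo, and Atf5 from -0.10 to 0.080 and Ddit3 from -0.20 to 0.0044 after insulin glargine. In Albulin against Insulin-Apo, Asns ranged from -0.11 to 0.28, Atf4 from -0.057 to 0.023, Psat1 from -0.0067 to 0.17 and Sesn2 from -0.12 to 0.18. In insulin glargine against Albulin, Asns ranged from -0.27 to 0.16, Ddit3 from -0.13 to 0.084, Psat1 from -0.011 to 0.12 and Sesn2 from -0.11 to 0.17. In insulin glargine against Insulin-Apo, Asns ranged from -0.24 to 0.20, Atf3 from -0.12 to 0.21, Phgdh from -0.085 to 0.12 and Sesn2 from -0.12 to 0.19.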
